A study of Mus musculus with 3 samples.

Results

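The 31 genes described here encode semaphorins (20 genes), plexins (9 genes) and neuropilins (2 genes), and they were taken as all array probes whose gene name in the scanner files is one of these symbols. They are 31 of the 28038 gene names on the array and are measured by 58 of its 41174 gene probes. RNA came from E14.1, a line of mouse embryonic stem (ES) cells, at 3 points of a differentiation towards liver, with 1 one-colour Cy3 array each. Day 0 was the undifferentiated ES cells, held on gelatin in N2/B27 medium that contained BMP4 and LIF. Day 5 was definitive endoderm, the germ layer that forms liver, pancreas and gut, made on collagen IV with activin A replacing LIF and BMP4. Day 7 was early hepatic cells, after 2 further days in which BMP4 and basic FGF joined activin A. All 3 groups therefore share 1 cell line and the N2/B27 medium, and day 5 and day 7 share activin A and collagen IV. The labels name no sorting step and no second culture of any day.

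Semaphorins are secreted or membrane-bound guidance proteins, first known for steering growing axons and later for guiding vessels, heart cells and immune cells. Plexins are their transmembrane receptors and act inside the cell on small GTPases. Most secreted class 3 semaphorins bind a plexin only together with a neuropilin, a co-receptor that also binds vascular endothelial growth factors (VEGF), whereas membrane-bound semaphorins of the other classes usually bind plexins directly.

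Values are normalised log2 signals, so that 0 is the 75th percentile of an array's gene spots, and they compare 1 probe between days but not one probe with another. A difference was called (higher or lower) where it reached 2-fold and the brighter array was well above background. Where the dimmer array lacked that mark, the difference is a bound, written "at least N-fold". With 1 array per day there is no replicate, no test and no error between cultures, and each comparison below is a comparison of 2 arrays. The median over all genes measured on both arrays was -0.13 (day 5 minus day 0), -0.20 (day 7 minus day 0) and -0.09 (day 7 minus day 5). Between 70.9% and 71.7% of gene spots were well above background on each array.

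The labelled cell types were checked against marker genes. All 9 ES cell markers were called lower on day 5 than on day 0, and all 9 definitive endoderm markers were called higher. On day 7 against day 5, 7 of these endoderm markers were called lower and 0 higher. Of 8 hepatic markers on the array, 7 were higher on day 7 than on day 0, with Afp at 875-fold. Alb, the gene of the defining serum protein of liver, albumin, was well above background on day 5 alone (-6.07), and not on day 0 (-8.53) or day 7 (-7.52). Markers of other cell types also differed between days, and their values stand beside the genes they move with. In bulk RNA, fewer cells of a type and less RNA per cell cannot be told apart.

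Members called higher on day 5 than on day 0 numbered 13 of 31 (41.9%), against 16.5% of all 21256 genes compared. Members called lower numbered 5 (16.1%), against 16.1% of all genes. Against day 0, day 7 had 12 members called higher (38.7%, against 16.3% of all genes) and 5 called lower (16.1%, against 19.1%). Between day 7 and day 5, 5 members were called higher (16.1%, against 5.99% of all genes) and 6 lower (19.4%, against 8.44%). With each array centred on its median, the last comparison gave 5 higher and 3 lower. The median difference of the members measured on both arrays was 0.21 for day 5 minus day 0 (27 members), 0.04 for day 7 minus day 0 (27 members) and -0.21 for day 7 minus day 5 (30 members). The first 2 comparisons share the day 0 array, so their counts are given side by side and not as separate support.

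**Figure D1:**
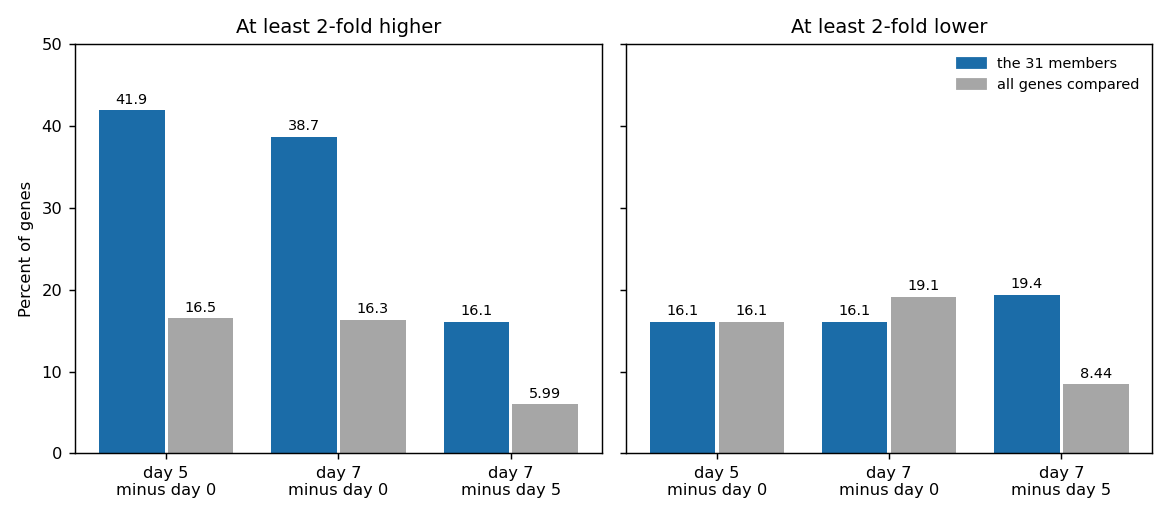
Percent of the 31 members (blue) and of all genes compared (grey) called at least 2-fold higher (left) or lower (right) in each comparison of 2 arrays. The blue bar exceeds the grey one for higher calls in all 3 comparisons (41.9 against 16.5, 38.7 against 16.3 and 16.1 against 5.99), while for lower calls the blue and grey bars are at 16.1 and 16.1, 16.1 and 19.1, and 19.4 and 8.44.

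Every member was well above background on at least 1 day, namely 27 on day 0 and 30 on day 5, with all 31 on day 7. The 4 members below that level on day 0 were the class 3 semaphorins Sema3a, Sema3c and Sema3d and the co-receptor Nrp1. In all, 22 members were called in at least 1 comparison. The 9 others were Sema3b, Sema3d, Sema4d, Sema4g, Sema5b, Sema6b, Sema6c, Plxna1 and Plxnc1, and for Sema3d this reflects values that are bounds or missing, not a measured lack of change. Sema4d and Sema5b were uncalled by the probe that stands for the gene, while another probe of each passed 2-fold. On day 5 against day 0, 7 of 20 semaphorins were called higher (35%) and 4 lower (20%), and 6 of 11 receptors higher (54.5%) and 1 lower (9.09%), beside 16.5% and 16.1% of all genes. The other semaphorins were within 2-fold (7), had a bound under 2-fold (1) or no value (1), and the median of those measured on both arrays was 0.18.

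**Figure D2:**
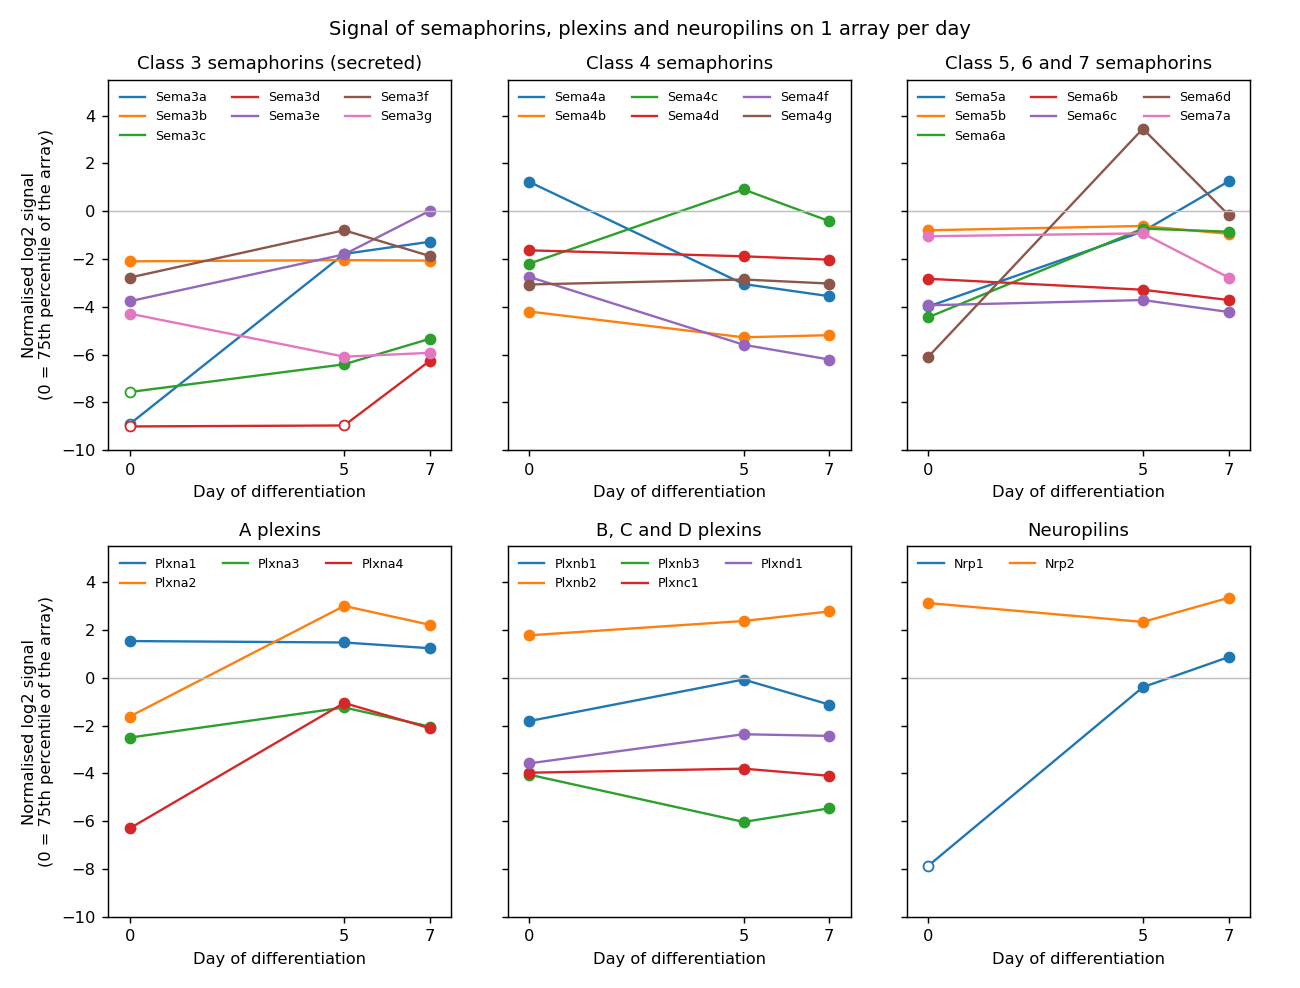
Normalised log2 signal of each member's probe on days 0, 5 and 7 (1 array per day; 0 is the array's 75th percentile), in 6 panels by class. Open circles are values not well above background (Sema3a, Sema3c, Sema3d and Nrp1 on day 0, Sema3d also on day 5; the day 0 circles of Sema3a and Sema3d overlap), and the steepest lines to day 5 are those of Sema6d, Nrp1, Sema3a, Plxna4 and Plxna2, while Sema4a and Sema4f run downward.

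Among the 7 secreted class 3 semaphorins, 3 were called higher on day 5 than on day 0 (42.9%) and 1 lower (14.3%), with the same numbers on day 7. The shares of all genes were 16.5% and 16.1% on day 5, and 16.3% and 19.1% on day 7. Sema3a, the founding repellent of growing axons, had a signal of -8.91 on day 0 (not well above background), -1.79 on day 5 and -1.28 on day 7. Day 5 thus stood at least 32.1-fold and day 7 at least 45.9-fold above day 0, and the 2 later arrays lay within 1.43-fold of each other. A second probe gave at least 22.0-fold and at least 27.3-fold, and the other was dim on all days. With a refitted normexp background correction the differences were 3.08 and 3.54 (log2), against bounds of 5.01 and 5.52. This correction, here and below, adds 50 intensity units to every signal, which by itself makes differences of dim probes smaller.

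Sema3e, which binds plexin D1 without a neuropilin and patterns vessels in the mouse embryo, had signals of -3.77, -1.81 and 0.02 on days 0, 5 and 7. It was 3.90-fold higher on day 5 and 13.9-fold higher on day 7 than on day 0, and 3.56-fold higher on day 7 than on day 5, so each array stood above the one before it. A second bright probe gave 5.23-fold, 13.6-fold and 2.61-fold. Sema3c, needed for septation of the cardiac outflow tract in the mouse, was dim throughout, with -7.57 on day 0 (not well above background), -6.41 on day 5 and -5.34 on day 7. Day 7 stood at least 2.75-fold above day 0 and 2.11-fold above day 5. With the refitted correction the differences were 0.34 and 0.40 (log2), short of a call. The intensities were 8.25, 24.1 and 50.8 on days 0, 5 and 7. Because the correction adds 50 units to each, it could not test these calls.

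Sema3f, the repellent that acts through Nrp2, had its highest signal on day 5, with -2.78, -0.80 and -1.88 on days 0, 5 and 7. It was 3.95-fold higher on day 5 than on day 0, and day 7 was 2.11-fold lower than day 5, a call lost with median centring (-0.94) and with the refitted correction (-0.99). Sema3g, another Nrp2 ligand, went the other way, with -4.29, -6.09 and -5.93, or 3.49-fold lower on day 5 and 3.12-fold lower on day 7 than on day 0. With the refitted correction these were -1.08 and -0.97 (log2), the second short of a call. Sema3b stayed within 1.03-fold, with -2.10, -2.05 and -2.07. Sema3d was well above background on day 7 alone, at -6.26.

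The membrane-bound class 4 held 3 of the 5 members called lower on day 5 than on day 0, and 1 other of its 6 members was higher. These were 50% and 16.7% of the class, beside 16.1% and 16.5% of all genes. Sema4a, known for co-stimulating T cells and for its part in the retina, had signals of 1.23 on day 0, -3.05 on day 5 and -3.56 on day 7. It was 19.4-fold lower on day 5 and 27.7-fold lower on day 7 than on day 0. Sema4f had -2.75, -5.59 and -6.21, and was 7.13-fold lower on day 5 and 11.0-fold lower on day 7 than on day 0, or by -1.88 and -2.13 (log2) with the refitted correction. Sema4b had -4.20, -5.28 and -5.19, and was 2.11-fold lower on day 5, a call lost with the refitted correction (-0.71). On day 7 it was 1.99-fold lower than on day 0, just short of a call.

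Sema4c, a ligand of plexin B2 in neural development, was the class 4 member called higher. Its signals were -2.20, 0.91 and -0.42 on days 0, 5 and 7, so that day 5 was highest. It was 8.65-fold higher on day 5 and 3.44-fold higher on day 7 than on day 0, and 2.51-fold lower on day 7 than on day 5. A second probe moved the same way by less, at 2.51-fold and 1.47-fold higher and 1.70-fold lower, and the median of both was 2.22 (day 5) and 1.17 (day 7) above day 0 on the log2 scale. Sema4d, the ligand of plexin B1 on lymphocytes, had -1.64, -1.89 and -2.03 with its brighter probe, while its dimmer one was 3.80-fold lower on day 5 and 2.92-fold lower on day 7 than on day 0. Sema4g, which shares plexin B2 with Sema4c, stayed between -3.07 and -2.86.

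The promoters of the members were searched because 4 of them (Sema3g, Sema4a, Sema4f and Plxnb3) were lower on both later days. RefSeq promoter windows (250 bases before to 50 after the start, GRCm38.p6) were found for 26 of 31 members, 37 windows in all, and not for Plxna1, Plxna4, Sema3b, Sema3f and Sema6a. Both strands were searched for TGTTTAC (the core of FOXA sites), AGGTGTG (T-box factors) and AATCCAC (FOXH1). Each window shown holds 1 match, so no 2 motifs overlap there. The T-box letters stood in 4 of 37 member windows (10.8%, against 5.84% of all 32851 windows), and the genes were Sema4a (2 windows), Sema4f and Sema3g, while the Plxnb3 window held none of the 3 motifs. The FOXH1 letters stood in 2 (5.41%, against 2.49%), of Sema3e and Sema4c, and the FOXA letters in 0 (against 3.65%). A match is a description of the letters, not a shown binding site. The 250 bases before the start are given 5′ to 3′ on the gene's strand, with the matching letters in capitals (CACACCT and GTGGATT are T-box and FOXH1 letters read on the other strand), for Sema4a (chr3:88455762-88456011, minus strand), Sema4f (chr6:82939770-82940019, minus strand), Sema3g (chr14:31217623-31217872, plus strand) and, as a member that was higher on both days, Sema3e (chr5:14025026-14025275, plus strand).
Sema4a: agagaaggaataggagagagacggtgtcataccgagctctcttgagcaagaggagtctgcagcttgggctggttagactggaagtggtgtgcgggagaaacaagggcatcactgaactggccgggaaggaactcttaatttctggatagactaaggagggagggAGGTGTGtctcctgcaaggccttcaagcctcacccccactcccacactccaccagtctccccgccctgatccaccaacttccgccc
Sema4f: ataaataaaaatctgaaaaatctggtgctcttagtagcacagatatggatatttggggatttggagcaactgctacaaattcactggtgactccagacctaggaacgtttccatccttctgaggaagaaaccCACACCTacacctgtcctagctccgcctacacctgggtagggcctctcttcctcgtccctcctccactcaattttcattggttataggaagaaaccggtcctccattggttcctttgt
Sema3g: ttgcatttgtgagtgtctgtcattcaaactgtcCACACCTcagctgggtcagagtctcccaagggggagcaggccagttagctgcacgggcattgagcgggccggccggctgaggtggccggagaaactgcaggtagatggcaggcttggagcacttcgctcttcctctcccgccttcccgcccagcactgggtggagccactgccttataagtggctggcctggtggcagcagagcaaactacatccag
Sema3e: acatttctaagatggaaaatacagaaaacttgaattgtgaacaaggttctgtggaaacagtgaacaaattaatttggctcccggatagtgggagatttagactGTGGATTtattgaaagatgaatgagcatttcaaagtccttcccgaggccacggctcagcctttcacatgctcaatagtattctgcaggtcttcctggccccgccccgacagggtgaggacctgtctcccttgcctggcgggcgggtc

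Class 6 held the member with the largest difference measured on both arrays. Sema6d, a transmembrane ligand of plexin A1 that acts in heart development in the chick, had signals of -6.09 on day 0, 3.45 on day 5 and -0.16 on day 7. It was 745-fold higher on day 5 and 61.3-fold higher on day 7 than on day 0, and 12.2-fold lower on day 7 than on day 5. The high signal was thus that of the definitive endoderm array, with day 7 between the other two. The second Sema6d probe, which lies upstream of the first, was also highest on day 5, with -8.85 (not well above background), -5.44 and -9.06 (not well above background), so that day 5 stood at least 2.55-fold above day 0 and day 7 at least 3.02-fold below day 5. The size of the difference depended on probe and correction, at 7.59 (log2, day 5 minus day 0) with the refitted normexp correction and 5.45 as the median of both probes, against 9.54. For day 7 minus day 0 it was 4.06 with that correction, against 5.94.

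Sema6a, a ligand of plexins A2 and A4 in the developing brain, was 13.2-fold higher on day 5 and 12.0-fold higher on day 7 than on day 0 (-4.44, -0.73 and -0.86). A second probe was 1.86-fold and 1.68-fold higher, under the limit of a call, and the other was dim on all days. The median over its probes was 2.30 and 2.17 (log2), and the refitted correction gave 2.93 and 2.83. Sema6b, a plexin A4 ligand, had -2.83, -3.29 and -3.72, and Sema6c had -3.94, -3.72 and -4.22, all within 2-fold.

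Class 5 semaphorins carry thrombospondin repeats beside the sema domain. Sema5a, the ligand of plexin B3, had signals of -3.99, -0.85 and 1.25 on days 0, 5 and 7, so that each array stood above the one before it. It was 8.76-fold higher on day 5 and 37.6-fold higher on day 7 than on day 0, and 4.29-fold higher on day 7 than on day 5. A dimmer probe gave at least 1.26-fold, at least 3.73-fold and 2.97-fold. Against day 0, the median of both was 1.73 and 3.56 (log2) and the refitted correction gave 2.49 and 4.58, while day 5 and day 7 stood at 3.13 and 5.23 by the brighter probe. Sema7a, a semaphorin held by a lipid anchor that signals through integrin beta 1 and plexin C1, had -1.05, -0.93 and -2.78. It was 3.33-fold lower on day 7 than on day 0 and 3.62-fold lower than on day 5, while day 5 and day 0 differed by 1.09-fold.

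The values of Sema5b, a class 5 member that binds plexins A1 and A3, depended on the probe. The probe with the highest mean log2 signal over the 3 arrays, at -0.80, -0.62 and -0.95 on days 0, 5 and 7, stayed within 1.26-fold, and on day 5 it was the dimmest of the 3 probes. The other 2 probes lie downstream and moved alike. One had -2.46, 0.15 and -3.40 and the other -1.76, 0.81 and -2.77, so that day 5 was 6.08-fold and 5.96-fold higher than day 0, and day 7 was 11.7-fold and 12.0-fold lower than day 5. By these 2 probes Sema5b had the day 5 peak of Sema6d, Sema4c and Sema3f, and by the probe that stands for the gene it did not differ by 2-fold. Which probes report which transcripts was not tested. The first 30 bases of the probes of Sema5b and Sema6d are given 5′ to 3′, all on the plus strand of mm9. Those of Nrp1 (described below) are added, as the member with the highest bounds. For Sema5b they lie at chr16:35662805-35662864, chr16:35663626-35663685 and chr16:35664275-35664334. For Sema6d they lie at chr2:124493141-124493200 (the bright probe) and chr2:124490760-124490819. For Nrp1 they lie at chr8:131026650-131026709 (the brightest), chr8:130992273-130992332 and chr8:130884009-130884068.
Sema5b, probe within 2-fold: actggtgtgtcctgcttcctggtttctggg
Sema5b, second probe: ctgagctgtggacctattgggtatgtgagg
Sema5b, furthest downstream probe: ctgctacagcaacaaaaaggatgttaagct
Sema6d, bright probe: tattaatcccagcgtggtaactctgtgtga
Sema6d, dim probe: aaacttaaactcaccaaatggtgttttgtt
Nrp1, brightest probe: ttgtggatggtgtaaagttgaaaaaagata
Nrp1, second probe: atggtgtctggacttatttcagactcccag
Nrp1, furthest upstream probe: gtaaaccgtctgtgatcagtctgaagtatg

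Of the 9 plexins, 5 were called higher on day 5 than on day 0 (55.6%) and 1 lower (11.1%), beside 16.5% and 16.1% of all genes. On day 7 against day 0, 4 were higher (44.4%) and 1 lower (11.1%), beside 16.3% and 19.1% of all genes. Plexins of the A group are the signalling partners of neuropilins and the receptors of class 6 semaphorins. Plxna2 had signals of -1.62, 3.01 and 2.22 on days 0, 5 and 7, or 24.7-fold higher on day 5 and 14.3-fold higher on day 7 than on day 0. Its 2 other probes gave 10.2-fold and 20.4-fold on day 5 and 6.88-fold and 12.3-fold on day 7, so all 3 probes moved together. Plxna4 had -6.30, -1.05 and -2.11, or 38.3-fold higher on day 5 and 18.3-fold higher on day 7 than on day 0. A second Plxna4 probe gave 3.65-fold and 2.48-fold, the median of both was 3.56 and 2.75 (log2), and with the refitted normexp correction the differences were 3.38 and 2.41 (log2). The 2.09-fold lower signal of Plxna4 on day 7 than on day 5 fell short of 2-fold under 5 of 7 other settings, at -0.81 to -0.99 (log2). The remaining settings were filters on dim probes, which reuse the same values and could not change this call.

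Plxna3, a receptor for Sema3f with Nrp2, had -2.50, -1.24 and -2.04 and was 2.40-fold higher on day 5 than on day 0. Its second probe was 1.44-fold higher, and the median of both (0.90 on the log2 scale) was under the limit. Plxna1, a receptor of Sema3a and Sema6d, differed by at most 1.24-fold between days, with 1.54, 1.48 and 1.24, and its second probe by at most 1.12-fold.

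Plexins of the B group bind class 4 semaphorins and can associate with receptor kinases such as Met. Plxnb1 was highest on day 5, with -1.81, -0.07 and -1.12 on days 0, 5 and 7. It was 3.32-fold higher on day 5 than on day 0, and day 7 was 2.06-fold lower than day 5. The last call was lost with median centring (-0.91) and with the refitted normexp correction (-0.97). Plxnb2, needed for neural tube closure in the mouse, stood above the 75th percentile of every array, with 1.78, 2.38 and 2.78, and was 2.01-fold higher on day 7 than on day 0, at the limit of a call (0.98 on the log2 scale with the refitted correction). Plxnb3, the Sema5a receptor, was the plexin that was lower, with -4.05, -6.03 and -5.46, or 3.97-fold lower on day 5 and 2.66-fold lower on day 7 than on day 0. The refitted correction gave -1.09 and -0.90 (log2), the second short of a call. Plxnc1, the Sema7a receptor, stayed within 1.23-fold (-3.97, -3.80 and -4.10). Plxnd1, the Sema3e receptor of endothelium, had -3.58, -2.36 and -2.43 and was 2.33-fold higher on day 5 and 2.21-fold higher on day 7 than on day 0. Both calls were lost with the refitted correction, at 0.72 and 0.68 (log2).

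Nrp1 had the highest bounds of all members. Its signals were -7.86 on day 0 (not well above background), -0.39 on day 5 and 0.87 on day 7, so that day 5 stood at least 84.9-fold and day 7 at least 203-fold above day 0. The other 2 probes, whose first bases are given above, were also not well above background on day 0 and gave at least 16.5-fold and at least 34.0-fold on day 5, and at least 18.2-fold and at least 65.3-fold on day 7. All 3 probes thus separated the ES cell array from both later arrays. With the refitted correction, which was read for the brightest probe, the differences were 4.22 and 5.46 (log2). Between day 7 and day 5, Nrp1 was 2.39-fold higher by its brightest probe, 1.92-fold and 1.1-fold higher by the others, with a median (0.94 on the log2 scale) under the limit. Nrp2 stood above the 75th percentile of every array, with 3.13, 2.34 and 3.35 on days 0, 5 and 7. It was 1.74-fold lower on day 5 and 1.16-fold higher on day 7 than on day 0, and 2.02-fold higher on day 7 than on day 5. The 2 co-receptors therefore differed in their course: Nrp1 was not well above background in ES cells and was on both later days, while Nrp2 stood above the 75th percentile in ES cells too.

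**Figure D3:**
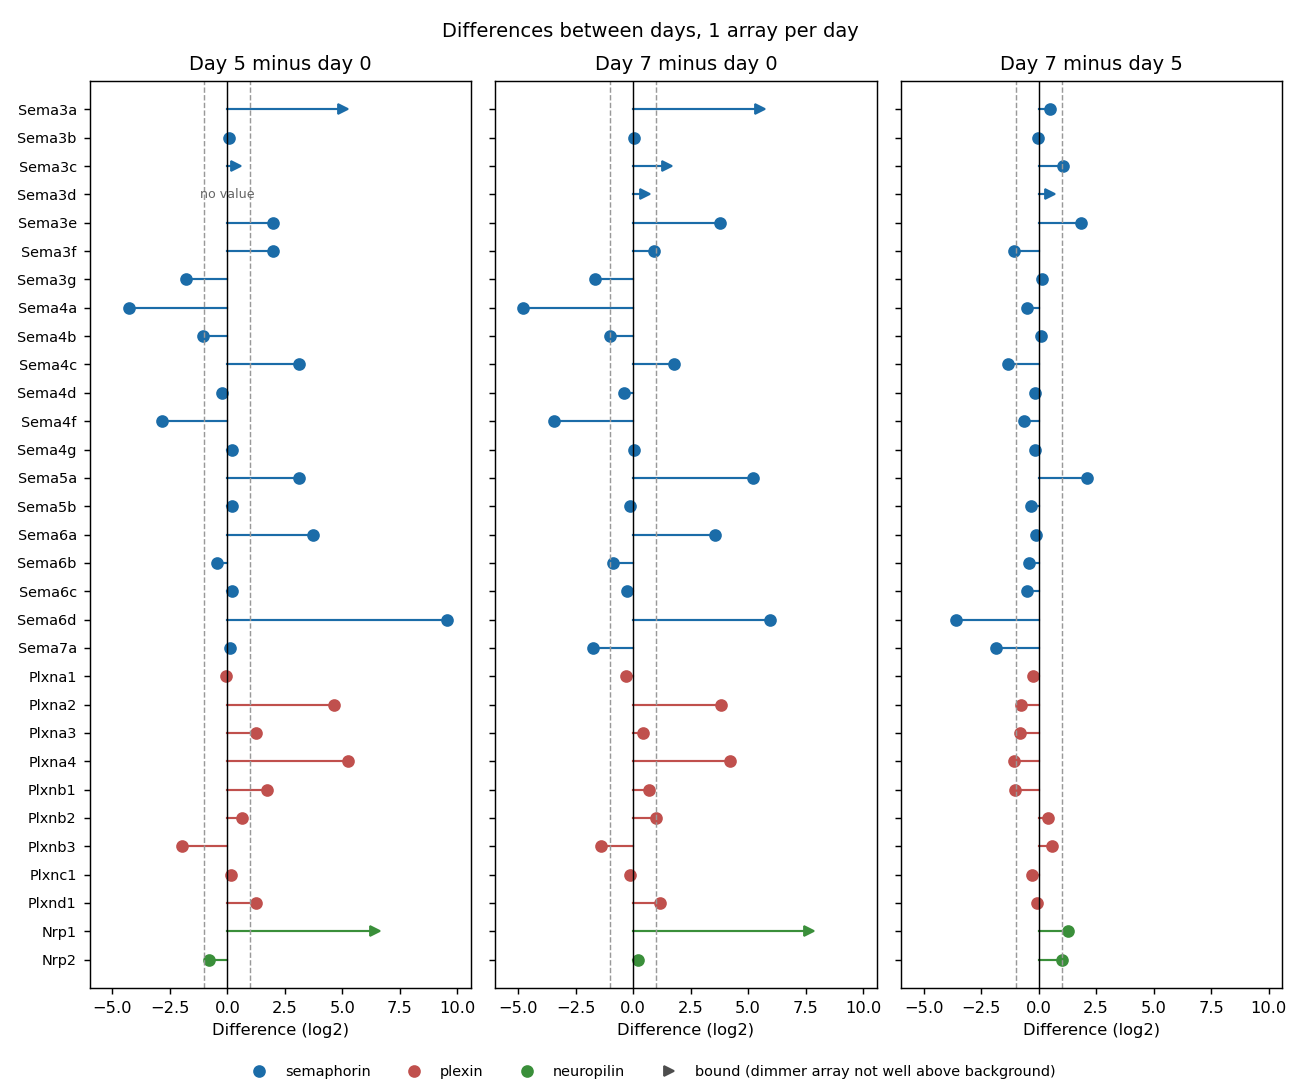
Difference of each member in normalised log2 signal for day 5 minus day 0, day 7 minus day 0 and day 7 minus day 5; arrowheads are bounds, dashed lines mark 2-fold, and colours mark semaphorins, plexins and neuropilins. Sema6d reaches 9.54 and 5.94 against day 0 and -3.60 for day 7 minus day 5, and Sema4a lies lowest against day 0 at -4.28 and -4.79.

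By the calls of the probe that stands for each gene, 10 members were higher on both later days than on day 0 and 4 were lower on both. The lower ones were Sema3g, Sema4a, Sema4f and Plxnb3. Both comparisons share the day 0 array, and no share of all genes called alike on both days is given beside these counts. They therefore describe the members only. Of the 10, Sema3e, Sema5a and Nrp1 were higher again on day 7 than on day 5. Sema4c, Sema6d and Plxna4 were lower on day 7 than on day 5, and Sema3a, Sema6a, Plxna2 and Plxnd1 stayed within 2-fold between these days. Sema3f and Plxnb1 were higher on day 5 than on day 0 and lower on day 7 than on day 5, and their second probes were still 2.59-fold and 2.29-fold higher on day 7 than on day 0. Among members with several probes that could be compared, all probes gave the same call in 12 of 17 for day 5 minus day 0, in 11 of 17 for day 7 minus day 0 and in 14 of 18 for day 7 minus day 5.

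**Figure D4:**
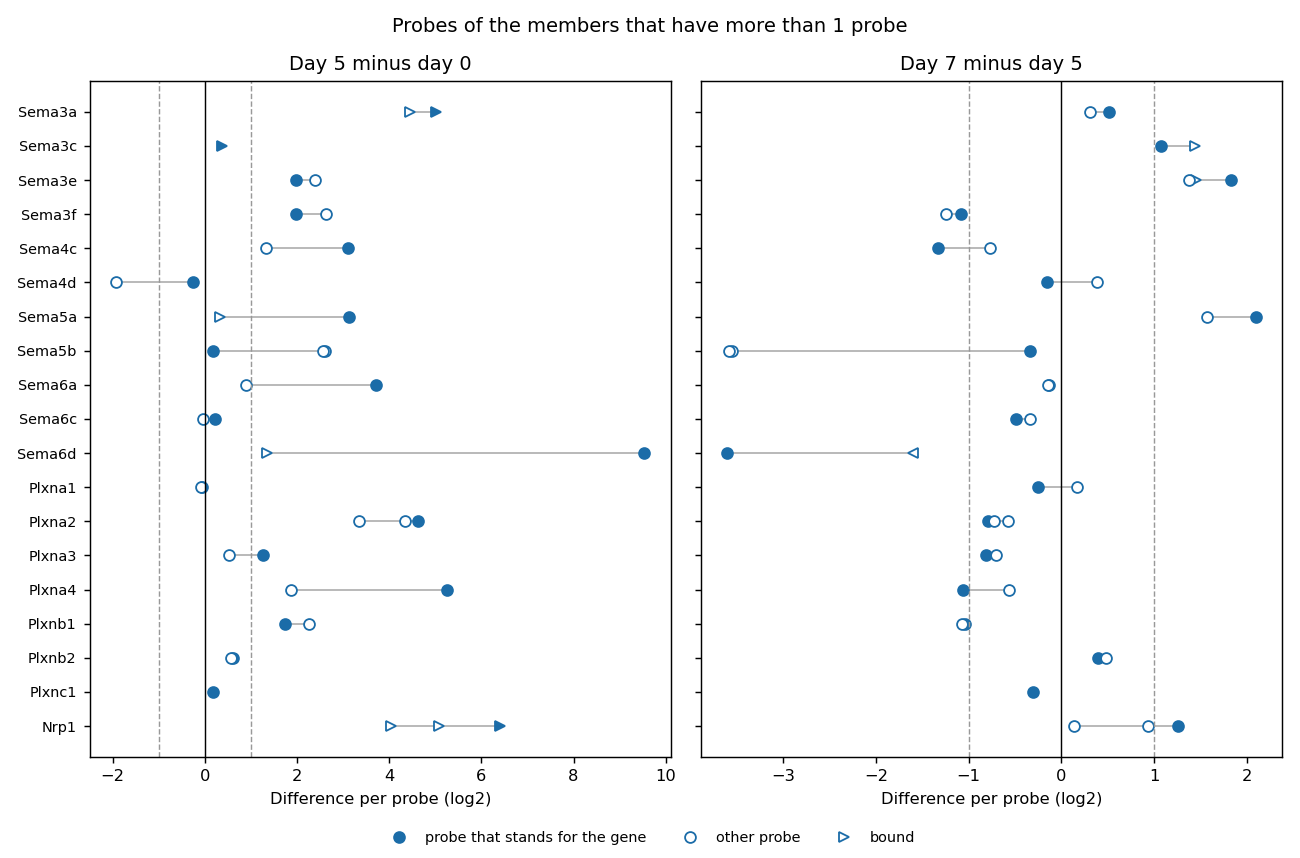
Differences (log2) of every probe of the members with more than 1 probe, for day 5 minus day 0 (left) and day 7 minus day 5 (right). Filled symbols are the probe that stands for the gene, open ones its other probes and triangles bounds. Plxna2 and Nrp1 probes lie on the same side of 0 on the left, whereas Sema5b has 1 probe at 0.18 and the others at 2.60 and 2.57 on the left, and -0.34 against -3.55 and -3.58 on the right.

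Ligands were set beside their textbook receptors in 27 pairs, which share members and are therefore not independent. Both partners were well above background in 19 pairs on day 0, 26 on day 5 and 27 on day 7. On day 5 against day 0, both partners were called higher in 6 pairs: Sema3a with Nrp1 and with Plxna4, Sema6a with Plxna2 and with Plxna4, Sema3e with Plxnd1, and Sema3f with Plxna3. Sema3a was thus higher on day 5 together with its binding co-receptor Nrp1 and with 1 of the plexins paired with it here, Plxna4. The other plexin in its pairs, Plxna1, differed by -0.06 (log2). In 3 pairs the partners moved in opposite directions: Sema5a was higher and Plxnb3 lower, and Sema4a was lower while Plxnb1 and Plxnd1 were higher. For day 7 minus day 0, both were higher in 8 pairs, which added Sema3c with Nrp1 and with Plxnd1 and Sema4c with Plxnb2, but not Sema3f with Plxna3. Sema6d, the ligand with the largest difference, was paired with Plxna1, which stayed within 1.24-fold. Sema7a was lower on day 7 while Plxnc1 stayed within 1.23-fold. For day 7 minus day 5, both partners were higher in 2 pairs, Sema3c with Nrp1 and with Nrp2, and Sema3f was lower while Nrp2 was higher.

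**Figure D5:**
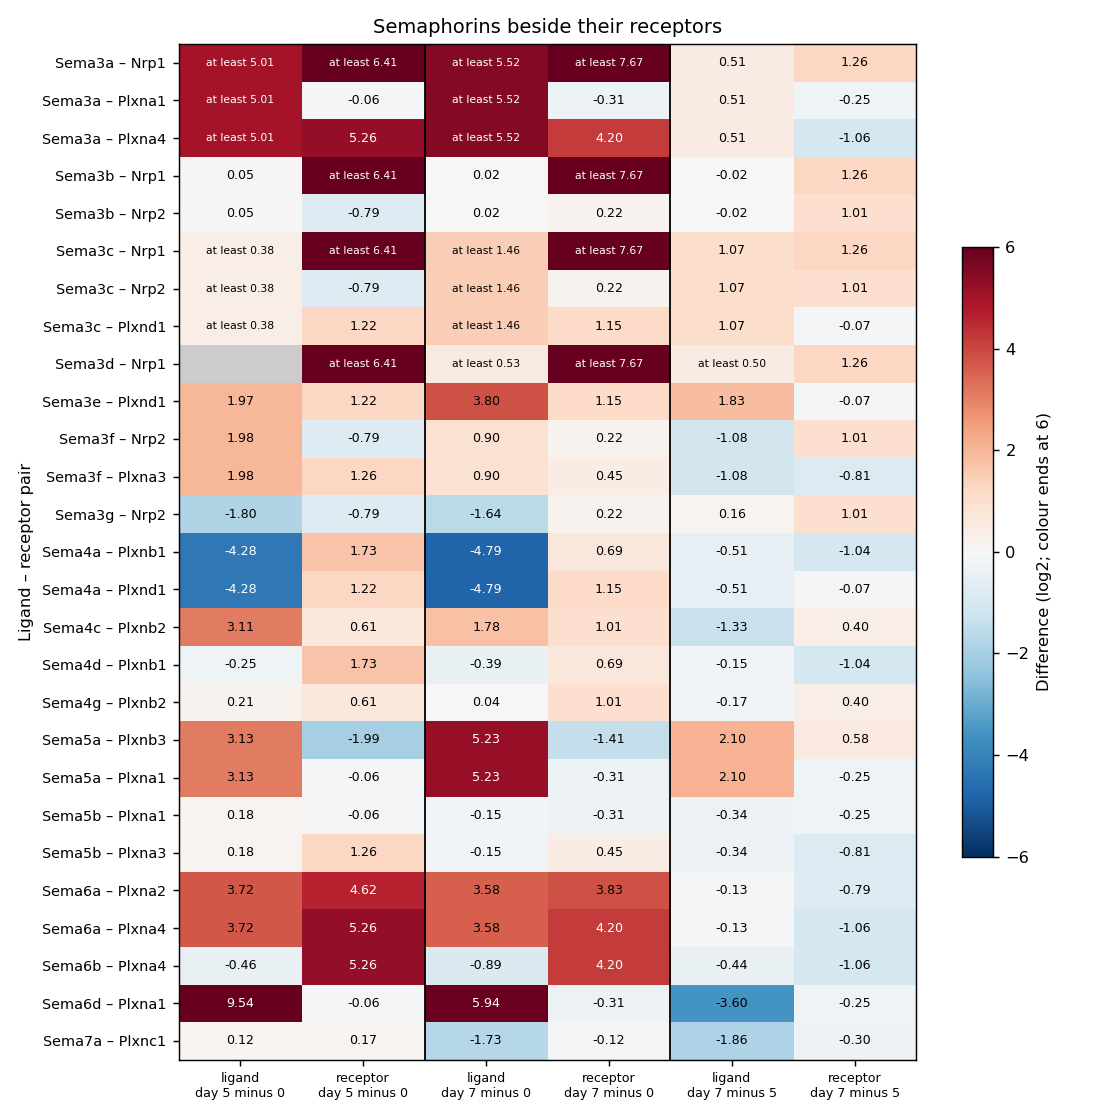
Differences (log2) of the ligand and the receptor of 27 pairs in the 3 comparisons; red is higher and blue lower on the later day, grey has no value, and "at least" marks bounds. Both cells are red on day 5 against day 0 for Sema3a with Nrp1 (at least 5.01 and at least 6.41), while Sema5a with Plxnb3 shows 3.13 and -1.99.

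Other genes of the pathway were read from 4 lists of 56 genes in all. Of these, 16 were called higher and 4 lower on day 5 than on day 0, 21 higher and 4 lower on day 7 than on day 0, and 7 higher and 5 lower on day 7 than on day 5. The shares of all genes called higher and lower were 16.5% and 16.1%, 16.3% and 19.1%, and 5.99% and 8.44% in these comparisons. The counts of each list below are to be read beside these shares. The median measured differences of the 56 genes were 0.31, 0.43 and 0.05. Of 8 VEGF ligands and receptors, which share neuropilins with the semaphorins, 4 were higher and 2 lower on day 5 than on day 0. Flt1, a VEGF receptor, was 164-fold higher on day 5 and 102-fold higher on day 7 than on day 0, and Kdr, the main signalling receptor, 38.1-fold and 64.8-fold. The ligand Vegfa was 4.15-fold and 3.66-fold higher, so the ligand, Kdr and their co-receptor Nrp1 were higher on the same arrays. Vegfc was 2.38-fold lower on day 5 than on day 0 and 4.58-fold higher on day 7 than on day 5.

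Kdr also marks endothelium. Of the 8 endothelial markers, 2 were higher on day 5 than on day 0, Kdr and Cdh5, and 4 were lower. Their summed signal, in units of the array's 75th percentile, was 1.44, 1.5 and 2.41 on days 0, 5 and 7, and without Kdr it was 1.41, 0.486 and 0.678. Such a sum adds different probes and follows its brightest ones, so the gene with the highest value is left out of it or given beside it. Tie1 and Emcn (days 0 and 5) and Pecam1 (day 5) were not well above background, so the high Nrp1, Kdr and Flt1 signals of day 5 stood beside 3 endothelial markers not well above background and Cdh5 at least 22.6-fold higher. On day 7 all 8 were well above background and 3 were higher than on day 5, and their part in the day 7 values was not tested.

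Of 15 co-receptors and processing enzymes, 6 were higher and 0 lower on day 5 than on day 0. Pcsk5, a proprotein convertase, was 73.9-fold higher on day 5 and 135-fold higher on day 7, and Furin, which cleaves class 3 semaphorins, 4.30-fold and 4.84-fold. Nrcam and L1cam, adhesion proteins that join neuropilins in the receptor complex, were 22.9-fold and 5.06-fold higher on day 5 than on day 0, and 5.12-fold and 4.20-fold lower on day 7 than on day 5. Both thus peaked on day 5, as Sema3f and Sema6d did. Chl1, another adhesion protein of this family, was too dim on day 0 (-7.19, not well above background) for measured differences. Its increases over that array are bounds, at least 2.33-fold (day 5) and at least 5.59-fold (day 7). Timd2, described as a Sema4a receptor in the mouse, was 86.3-fold higher on day 7 than on day 0, and Itgb1, the integrin chain that binds Sema7a, 2.81-fold higher on day 5 and 4.43-fold higher on day 7.

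Inside the cell, of 25 GTPases, regulators and kinases, 2 were higher and 2 lower on day 5 than on day 0. Both counts are smaller shares than the 16.5% and 16.1% of all genes. Farp1, an exchange factor that acts with A plexins, was 5.28-fold higher on day 5 and 6.52-fold higher on day 7 than on day 0. Rnd1, a GTPase that binds plexins, was 9.95-fold lower on day 5 and 7.21-fold lower on day 7, and Mras, a Ras relative, 16.9-fold and 7.72-fold lower. Of 8 collapsin response mediators and Mical oxidases, the cytoskeletal effectors of Sema3a signalling, 4 were higher and 0 lower on day 5 than on day 0. Dpysl3 was 14.3-fold, Dpysl2 4.02-fold, Mical1 3.44-fold and Mical2 2.26-fold higher. On day 7, Dpysl3 was 5.89-fold lower than on day 5.

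Several members are best known from neurons, so neural markers were read beside them. Of 8 neuronal and neural progenitor markers on the array, 2 were higher (Nes at 3.19-fold and Ncam1 at 4.81-fold) and 3 lower (Tubb3, Stmn2 and Elavl3) on day 5 than on day 0. Their summed signal was 6.88, 14.1 and 8.55 on days 0, 5 and 7, and 4.76, 3.92 and 4.36 without Ncam1. Dcx, a marker of young neurons, was well above background on day 7 alone, and the early neural factors Sox1 and Pax6 differed by at most 1.28-fold between day 5 and day 0. The day 5 peaks of Sema6d, Sema4c, Sema3f and Nrcam stood beside lower Tubb3, Stmn2 and Elavl3 and higher Nes and Ncam1. Of 5 neural crest markers read on the array, 1 was higher (Ets1, 22.6-fold) and 2 lower on day 5 than on day 0. Their summed signal was 4.69, 2.15 and 4.59, and 4.42, 2.00 and 1.32 without Snai2. On day 5 against day 0, 4 of 7 cardiac and lateral mesoderm markers were higher and 1 lower, with the sarcomere gene Myl7 at 5.16-fold, and 4 of 7 extraembryonic endoderm markers were higher and 2 lower. Definitive endoderm markers also had their highest summed signal on day 5, at 1.54, 258 and 58.6 on days 0, 5 and 7, and 1.47, 179 and 50.4 without Lhx1. The part of these cell types in the day 5 values was not tested.

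Sema3c, Sema3e, Sema5a, Nrp1 and Nrp2 were higher on day 7 than on day 5, as were markers of several cell types. Of 8 hepatic markers on the array, 5 were higher on day 7 than on day 5 and 0 lower, with Afp at 556-fold. Their summed signal was 0.158, 1.31 and 29.2 on days 0, 5 and 7, and 0.142, 1.29 and 15 without Afp. Of 8 fibroblast and mesenchyme markers, 7 were higher on day 7 than on day 5 and 0 lower, with Col3a1 at 108-fold, Postn at 86.5-fold and Col1a1 at 54.3-fold. Their summed signal was 3.09, 3.17 and 22.3 on days 0, 5 and 7, and 2.80, 3.04 and 15.3 without Col1a1. Against day 5, day 7 also had 6 of 7 extraembryonic endoderm markers higher and 1 lower. Their sum was 25.9, 72.9 and 214 on the 3 days, and 3.76, 14.0 and 83.3 without Sparc. Of 7 cardiac and lateral mesoderm markers, 5 were higher and 1, Myl7, lower on day 7 than on day 5. Their sum was 6.53, 30.1 and 17.0 on the 3 days, of which Myl7 made up 5.63, 29.0 and 6.50. The part of these cell types in the day 7 values of the 5 members was not tested.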

How the data were processed

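Total RNA of 3 samples was measured with 1 Agilent one-colour array each. Per the file headers, the authors used Agilent Feature Extraction 10.5.1.1 on the scans and removed spatial trends, and probes are placed on mm9. The deposited scanner files hold intensity per spot on a linear scale. Their background-corrected column, the processed signal, was the starting point, and the mean signal and local background served for an alternative. The deposited value table has log2 intensity for 41252 probe rows, and its columns correlated with the log2 processed signal at 0.9998 to 1.0000 across probes, each with a median of 7.1678; no source used here says how the authors equalised the columns.

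Each array's 75th percentile of the log2 processed signal over 43379 gene spots (an intensity of 1564, 2051 and 2053 on days 0, 5 and 7) was subtracted. Non-uniform and outlier spots were left out (149, 104 and 131), spots of 1 probe were averaged, and no gene spot was saturated. Probes were named as in the files. A gene was represented by the probe well above background on the most arrays (more than 50% of its spots so marked) and, among equals, the brightest. A gene entered the comparisons (21256 of 28038 names) if that probe passed this mark on 1 array or more. A call needed a difference of at least 1 (log2) and a brighter array well above background. A difference from a dim value is a bound, for which the dim value was raised to the array's lowest value well above background if it lay below it (-6.79, -6.76 and -7.04 on days 0, 5 and 7). With 1 array per day no test was possible, and the small number of arrays limits the precision. The median SD between repeated spots of a probe was 0.0756 to 0.0796 (log2), a technical spread only, and all 3 arrays lay on 1 slide.

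Every member is reported with its values. Of each pathway list, up to 4 called genes in each direction could be named per comparison, and Itgb1 was named as the listed partner of Sema7a. The members, pairs, pathway lists, marker lists and motifs were chosen with earlier results of these data known, and 1 listed neural crest marker is not reported here. Alternatives were another background correction (normexp in limma 3.58.1, R 4.3.3, also refitted without spots of marked local background), quantile normalisation, median centring, the median over probes, other filters on dim probes, the authors' value table and a 3-fold limit. Both normexp versions add 50 intensity units to every corrected signal. Other steps ran in Python 3.11.15. Calling was tested on simulated data with spot noise only and every value well above background. Bounds, dim probes and differences between cultures were not covered by it.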

Additional observations from a re-analysis of the deposited data

How the results depend on the processing

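No paired analysis was possible because each day has 1 array. Calls were recomputed under 9 alternatives. Leaving aside the 3-fold limit and the planned normexp correction, 11 of 13 members called higher and 4 of 5 called lower on day 5 against day 0 kept their call in every alternative that included them, as did 9 of 12 and 3 of 5 on day 7 against day 0, and 3 of 5 and 3 of 6 on day 7 against day 5. The filters on dim probes reuse the same values for members well above background on every array, so those calls could not change there. The authors' value table gave the same member counts as quantile normalisation. Of 46 called differences, the refitted normexp correction, which was chosen after seeing the data, made 19 smaller by over 1.5 times, and the median over all probes of a gene made 12 smaller by as much. The 50 units that the correction adds shrink differences of dim probes by themselves. A call of a dim gene lost with it is therefore not a check of the background alone. The refitted correction called 3 members lower on day 7 against day 0 and 3 on day 7 against day 5. Median centring also called 3 lower on day 7 against day 5. With the 3-fold limit, 2 members were higher and 2 lower on day 7 against day 5, and 3 were higher when probes dim on any array were left out.

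The planned normexp correction could not be fitted well. On day 0, 5 spots lay over 100 units below their local background, and the fitted background mean was -1242.3, against 5.8 without marked spots. It gave 4 members higher and 12 lower on day 5 against day 0, 4 higher and 11 lower on day 7 against day 0, and 9 higher on day 7 against day 5. It also turned the sign of Plxna3 (-0.38), Plxna4 (-0.04), Plxnd1 (-1.57) and Sema3e (-0.96) for day 5 minus day 0, and of Plxna4 (-0.54) and Plxnd1 (-0.93) for day 7 minus day 0. With it, 43.8% of all genes were called lower on day 5 than on day 0. The all-gene median of day 7 minus day 0 was -0.20 with the 75th percentile and -0.08 with quantile normalisation, and that of day 7 minus day 5 was -0.09, and 0.04 with median centring. Dim signal limits Sema3a, Sema3c, Sema3d and Nrp1, whose differences from day 0 are bounds or missing. It also limits Sema6d (-6.09) and Plxna4 (-6.30), which on day 0 lay near that array's lowest value well above background (-6.79). Their folds for day 5 over day 0 were 745 and 38.3, and 193 and 10.4 with the refitted correction.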

Other observations

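Probes for members outside the naming rule gave 1 more view. A probe that the files name by a transcript and describe as semaphorin-6D (mm9, chr2:124487717-124487776, plus strand) had -8.80 on day 0 (not well above background), 0.29 on day 5 and -3.47 on day 7. Day 5 stood at least 136-fold and day 7 at least 10.0-fold above day 0, and day 7 was 13.5-fold lower than day 5, so it too was highest on the definitive endoderm array, like both Sema6d probes. A probe described as neuropilin-2 (mm9, chr1:62862569-62862628, plus strand) was not well above background on any day, while the Nrp2 probe stood above the 75th percentile of every array; the cause was not tested.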
